A study of Arabidopsis thaliana with 4 samples.

Results

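The regions described here are 1701 bins of 100 bp on chromosomes 1 to 5 of Arabidopsis thaliana in which CHH methylation was lower in both comparisons of ccr4a ccr4b mutants with their references. A bin was taken when at least 4 of its CHH cytosines had 4 or more calls in all 4 libraries, when its pooled CHH level was at least 10 percentage points lower in ccr4a ccr4b than in WT, and when it was also at least 10 points lower in the quadruple mutant ccr4a ccr4b ddm1 rdr2, relative to ddm1 rdr2. These pooled CHH levels of the 4 libraries are the values the bins were selected on. Of 1315599 bins, 546338 were readable by the first criterion, and the 1701 were 0.311% of these. A bin can fall by 10 points in both comparisons only if its CHH level was at least 10% in both WT and ddm1 rdr2. That held for 15455 bins, called candidate bins below, and the 1701 were 11% of them (Wilson 95% interval 10.5% to 11.5%).

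The series holds 4 enzymatic methyl-seq libraries, 1 per genotype, of leaf DNA from 6-week-old plants in the Col-0 background. The genotypes are ccr4a ccr4b, wild type (WT), the quadruple mutant and ddm1 rdr2, and the last 2 share the ddm1 and rdr2 mutations. In this assay enzymes convert unmethylated cytosines and leave methylated ones, and a call is 1 read at 1 cytosine. The libraries held 574097022 nuclear calls in ccr4a ccr4b, 774313581 in WT, 785451909 in the quadruple mutant and 745511802 in ddm1 rdr2, and 52.2%, 33.0%, 26.1% and 33.4% of nuclear cytosines had no call in these libraries in that order. The chloroplast, whose DNA is taken as unmethylated, had 0.0737% to 0.102% methylated CHH calls. There were no replicates, so the tests below compare libraries and not genotypes, and the intervals cover counting error only. Calls at neighbouring cytosines of a read are not independent, so intervals and p-values over summed calls are too small. The labels do not give the mutant alleles or how many plants went into a library.

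CCR4a and CCR4b are deadenylases of the CCR4-NOT complex, which shortens the poly(A) tails of mRNAs. DDM1 is a chromatin remodeller that lets methyltransferases reach heterochromatin, and RDR2 makes the double-stranded RNA from which the small RNAs of RNA-directed DNA methylation are cut. In plants CG methylation is kept by MET1 and CHG methylation by CMT3. CHH methylation, where H is A, C or T, is placed by the RNA-directed pathway through DRM2, mostly on short transposons and transposon edges, and by CMT2 in long heterochromatic transposons.

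The sequences of 5 bins show how the lowered cytosines lay within the DNA: the bin with the largest drop common to both comparisons, 1 bin each from the runs of 6 and of 5 bins and from 1 of the 6 runs of 4 bins (that with the largest sum over its bins of the smaller drop), and 1 from the longest run in centromeric satellite DNA. They are the + strand, 5′ to 3′, in the coordinates of the deposited files, whose names give the build as ColCEN. Letters were rebuilt from the listed cytosines of both strands and their trinucleotides, and n is an A or a T that these do not tell apart. Capitals mark CHH cytosines whose level was lower in both comparisons, as C on the + strand and as the G opposite one on the − strand.
Largest drop, chr5:14339101-14339200: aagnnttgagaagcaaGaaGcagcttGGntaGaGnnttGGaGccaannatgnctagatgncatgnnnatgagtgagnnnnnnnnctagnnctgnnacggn
Run 1, chr5:11288501-11288600: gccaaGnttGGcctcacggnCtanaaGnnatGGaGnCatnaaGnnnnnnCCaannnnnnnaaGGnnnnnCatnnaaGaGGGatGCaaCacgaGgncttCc
Run 2, chr5:15929401-15929500: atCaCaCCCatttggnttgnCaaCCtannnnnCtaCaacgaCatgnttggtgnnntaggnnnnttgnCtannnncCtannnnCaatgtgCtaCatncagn
Run 3, chr1:14822401-14822500: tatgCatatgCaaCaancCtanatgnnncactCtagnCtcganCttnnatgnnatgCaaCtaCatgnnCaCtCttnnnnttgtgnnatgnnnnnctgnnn
Satellite run, chr5:12088901-12089000: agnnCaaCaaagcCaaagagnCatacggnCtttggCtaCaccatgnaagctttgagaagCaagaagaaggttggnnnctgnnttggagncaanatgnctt
In the largest-drop bin all 9 readable CHH cytosines lay on the − strand and all 9 were lower. In the bin of run 1, 24 of 32 were lower, 8 on the + strand and 16 on the − strand. The bins of runs 2 and 3 had 16 of 17 and 13 of 16 lower, all on the + strand, and the satellite bin 8 of 13, also on the + strand. Many of the bins were read mainly on a single strand. Only 593 of the 1701 had at least 2 readable CHH cytosines on each strand, against 10316 of the 15455 candidate bins. Lowered cytosines on a single strand here therefore do not show a loss limited to that strand.

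CHH methylation of the 1701 bins, which chose them and is therefore given as description, fell to a median of 3.8% in ccr4a ccr4b, against 22.1% in WT, and to 4.55% in the quadruple mutant, against 20.6% in ddm1 rdr2. The quartiles were 0% to 10.3% in ccr4a ccr4b and 16.5% to 29.7% in WT, and 1.41% to 8.96% in the quadruple mutant and 15.8% to 27.4% in ddm1 rdr2. No methylated CHH call was seen in 662 bins (38.9%) in ccr4a ccr4b, in 291 (17.1%) in the quadruple mutant, and in 169 in both. Of the candidate bins, 10.2% had none in ccr4a ccr4b and 4.05% had none in the quadruple mutant. A level of 0 is also easier to reach with fewer calls. The median CHH calls per lowered bin were 93 in ccr4a ccr4b and 137 in the quadruple mutant. Candidate bins had medians of 13.6% in ccr4a ccr4b and 18.9% in WT, and 8.74% in the quadruple mutant and 15% in ddm1 rdr2. Over all readable bins, 3.17% were at least 10 points lower in ccr4a ccr4b than in WT and 1.27% were at least 10 points lower in the quadruple mutant than in ddm1 rdr2. The 1701 bins were 9.83% of the 17298 bins lowered in the first comparison and 24.5% of the 6949 lowered in the second. Only 240 bins were at least 10 points higher in both.

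**Figure D1:**
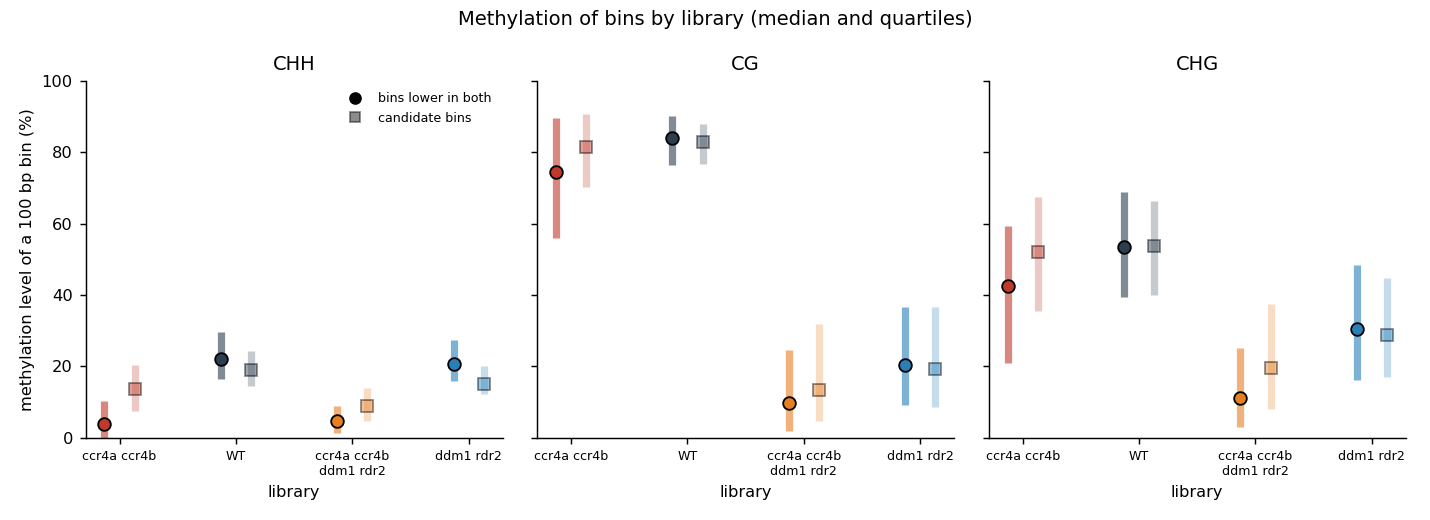
Methylation level (%) of the bins lowered in both comparisons (circles) and of all candidate bins (squares), as median and quartiles over bins, in each of the 4 libraries and for CHH, CG and CHG. The CHH medians of the lowered bins are 3.8% in ccr4a ccr4b and 22.1% in WT, and CG is at 74.4% in ccr4a ccr4b and 84.0% in WT.

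Most of the bins lay close to the threshold. The smaller of a bin's 2 drops had a median of 12.5 points and a maximum of 49.1 points, and it reached 15 points in 441 bins, 20 points in 156 and 30 points in 16. Just inside the threshold, chr1:13740001-13740100 had 0 of 48 calls methylated in ccr4a ccr4b and 23.6% of 72 in WT. It had 0 of 63 in the quadruple mutant and 10% of 50 in ddm1 rdr2. Its 0 counts allow up to 6.25% and 4.76%. Just outside the threshold, chr4:6989901-6990000 had 7.91% in ccr4a ccr4b and 18.6% in WT, and 4.60% in the quadruple mutant and 14.6% in ddm1 rdr2, from 1188 to 1884 calls per library. At the other end, the largest-drop bin printed above had 0 of 50 calls methylated in ccr4a ccr4b, which allows up to 6.00%, and 49.1% of 53 in WT. It had 6.67% of 45 calls in the quadruple mutant and 57.8% of 45 in ddm1 rdr2. Of the 5 largest drops, chr5:10696001-10696100 had the most calls, with 0 of 60 methylated in ccr4a ccr4b and 56.0% of 168 in WT. It had 0 of 71 in the quadruple mutant and 41.9% of 86 in ddm1 rdr2. These 0 values allow shares of up to 5.0% and 4.23% by counting error alone. The calls of this bin were spread over 15 CHH cytosines, so few reads lie behind them in ccr4a ccr4b.

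The bins were small in CHH content and thinly covered, and this stands beside every count that follows. They had a median of 13 readable CHH cytosines, against 23 in candidate bins and 22 in all readable bins, and 25% of them had fewer than 8, against 9.86% and 10.7%. Their median calls per CHH cytosine were 7.11 in ccr4a ccr4b and 12.4 in WT, and 11.2 in the quadruple mutant and 9.0 in ddm1 rdr2, where candidate bins had 11.5, 22.2, 18.0 and 15.7 in that order. The share of candidate bins that fell in both comparisons was 27.0% (25.2% to 29.0%) where the poorest of the 4 libraries had 16 to 49 CHH calls, and 2.62% (2.21% to 3.10%) where it had 400 or more. By CHH cytosines the share was 28.0% for bins with 4 to 7 and 4.29% for bins with 24 or more. The part of depth in these counts was not tested beyond the stricter minimums given here and in the closing section.

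The bins were spread along all chromosomes and were concentrated at and around the centromeres. Satellite DNA was taken as 10 kb windows in which at least 50% of cytosines recur at the repeat length of the centromeric array and the span as the stretch from the first to the last such window of a chromosome's main cluster. In all, 317 bins (18.6%) lay in satellite windows, 96 (5.64%) in other windows of the span, 874 (51.4%) in pericentromeres within 2 Mb of the span, and 414 (24.3%) in arms. Candidate bins had 10.6%, 3.93%, 51.9% and 33.5% in the same classes, and all readable bins 2.12%, 0.679%, 19.6% and 77.6%. Outside the span the bins lay a median of 1.04 Mb from it, against 1.35 Mb for candidate bins. Chromosomes 1 to 5 held 287, 259, 446, 215 and 494 of them, or 10.5% to 12.1% of each chromosome's candidate bins.

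Within the candidate bins, the share lowered in both comparisons was highest in satellite windows and lowest in arms. It was 19.3% (17.5% to 21.3%) in satellite windows, 15.8% (13.1% to 18.9%) in other windows of the span, 10.9% (10.2% to 11.6%) in pericentromeres and 7.99% (7.28% to 8.76%) in arms. With a minimum of 10 calls per cytosine, it was 12 of 123 in satellite windows, or 9.76% (5.67% to 16.3%), and 170 of 3387, or 5.02%, in arms, with 7.39% in pericentromeres. The order of the classes held with this minimum, but the satellite interval then overlapped those of the pericentromeres (6.70% to 8.15%) and of the arms (4.33% to 5.81%). Satellite windows then made up 2.07% of the lowered bins, where they made up 18.6% with 4 calls. Satellite reads can also come from many near-identical copies, and which copy a read was given to cannot be checked in these files.

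**Figure D2:**
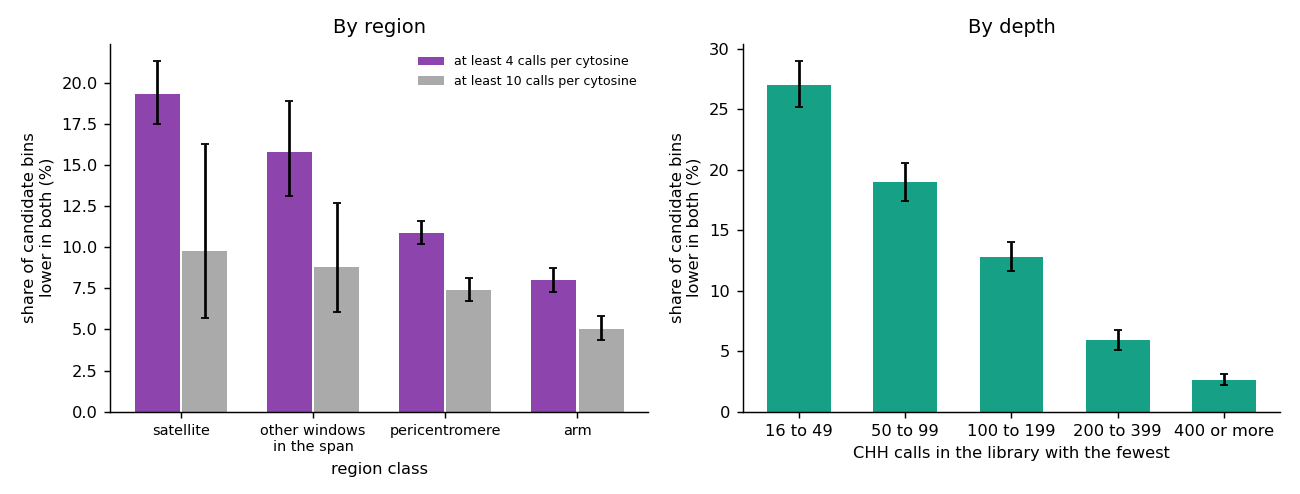
Share (%) of candidate bins that were lowered in both comparisons, with Wilson 95% intervals: left by region class, with at least 4 (purple) and at least 10 (grey) calls per cytosine; right by the number of CHH calls in the library with the fewest. The share is 19.3% in satellite windows and 7.99% in arms at 4 calls, and runs from 27.0% at 16 to 49 calls to 2.62% at 400 or more.

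The regions also differed in the levels from which CHH methylation fell. The satellite bins had a median CHH level of 0% in ccr4a ccr4b and 15.7% in WT, and of 5.56% in the quadruple mutant and 21.4% in ddm1 rdr2. No methylated call was seen in ccr4a ccr4b in 248 of the 317 satellite bins (78.2%), against 670 of 1640 satellite candidate bins (40.9%). Those candidate bins had a median of 3.57% in ccr4a ccr4b and 14.6% in WT. The 317 bins held 23665 CHH calls in ccr4a ccr4b, the fewest of the 4 libraries. The arm bins had 8.98% in ccr4a ccr4b and 30.2% in WT, and 5.0% in the quadruple mutant and 21.8% in ddm1 rdr2. The pericentromeric bins lay between them in WT, with 5.0% in ccr4a ccr4b and 22.3% in WT, and 3.8% in the quadruple mutant and 19.7% in ddm1 rdr2. In candidate bins the WT medians rose in the same order, to 18.1% in pericentromeres and 22.7% in arms.

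The DNA of the bins was repeated more often than that of other bins. Of 1689 bins with enough known letters, 825 (48.8%) had at least 50% of their 50-letter words elsewhere in the genome, against 38.7% of candidate bins and 7.79% of all readable bins. Of the candidate bins, 13.8% (13.0% to 14.7%) of the repeated and 9.16% (8.59% to 9.76%) of the other bins were lowered in both comparisons. Their median GC content was 37%, against 39% in candidate bins and 42% in all readable bins, and a GC content under 30% went with a share of 20.9%, against 6.95% at 40% or more.

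The lowered bins were mostly single. Bins at most 100 bp apart formed 1484 runs, of which 1311 held 1 bin, 140 held 2, 25 held 3 and 8 held 4 to 6, so that 390 bins (22.9%) lay in runs of 2 or more. Of the readable bins directly beside them, 13.4% on the left and 13.7% on the right were lowered in both comparisons too, against 4.73% and 4.81% beside candidate bins. The median CHH level of the left neighbours was 9.11% in ccr4a ccr4b and 16.6% in WT, and 4.78% in the quadruple mutant and 12.8% in ddm1 rdr2. At 1000 bp to the left it was 10.8% in ccr4a ccr4b and 14.0% in WT, and 3.15% in the quadruple mutant and 6.67% in ddm1 rdr2. The central values were used to choose the bins, and neighbours within a fragment share reads with them.

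**Figure D3:**
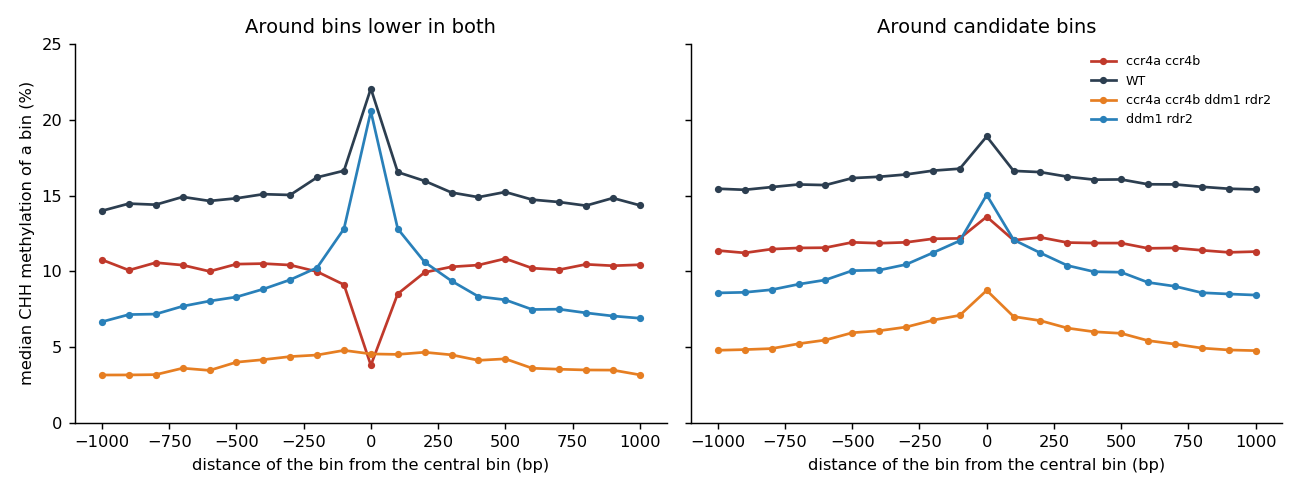
Median CHH methylation (%) of 100 bp bins by distance (bp) from a bin lowered in both comparisons (left) and from a candidate bin (right), in the 4 libraries. The gap between ccr4a ccr4b and WT and that between the quadruple mutant and ddm1 rdr2 are widest in the central bin and narrow within about 200 bp.

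The longest run, run 1, covered chr5:11288501-11289300 in a pericentromere, with 6 of its 8 bins lowered and 197 readable CHH cytosines. Its CHH level was 13.0% (12% to 14.1%) in ccr4a ccr4b and 27.8% (26.6% to 29.2%) in WT, and 2.09% (1.64% to 2.65%) in the quadruple mutant and 13.3% (12.3% to 14.4%) in ddm1 rdr2, from 3163 to 4593 calls. CG in it was 69.5% in ccr4a ccr4b and 84.3% in WT, and 5.32% in the quadruple mutant and 15.8% in ddm1 rdr2. All 3 contexts were lower in both comparisons there. Of the words of this run, 90.4% recur elsewhere, so its reads may come from other copies.

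Run 2, chr5:15929301-15929800, had all 5 bins lowered, with CHH at 8.79% in ccr4a ccr4b and 26.8% in WT, and at 1.94% in the quadruple mutant and 27.2% in ddm1 rdr2. Its CHG level was 46.7% in ccr4a ccr4b and 58.1% in WT, and 12.6% in the quadruple mutant and 54.3% in ddm1 rdr2. Here CHH and CHG stood close to their WT levels in ddm1 rdr2, while CG was at 37.4% in ddm1 rdr2 and 80.8% in WT. Run 3, chr1:14822201-14822600, lay 0.0175 Mb from the span of chromosome 1, and its CHH level was 2.84% in ccr4a ccr4b and 23.4% in WT, and 3.71% in the quadruple mutant and 33.1% in ddm1 rdr2. CG in run 3 was 38.8% (26.4% to 52.8%) in ccr4a ccr4b and 91.0% (81.8% to 95.8%) in WT, from 49 and 67 calls. These intervals were apart, but the calls lay on only 5 CG cytosines, where such intervals are too small. Of the words of run 3, 83.5% recur elsewhere, so its reads may also come from other copies.

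Run 4, chr3:18072101-18072500, and run 5, chr2:8499401-8499800, had the most bins of the arm runs, with 4 each. Run 4 had CHH at 24.3% in ccr4a ccr4b and 46.0% in WT, and at 0.857% in the quadruple mutant and 25.2% in ddm1 rdr2. Run 5 had CHH at 13.3% in ccr4a ccr4b and 31.7% in WT, and at 2.30% in the quadruple mutant and 30.3% in ddm1 rdr2. Run 6, chr1:13951001-13951500, had CHH at 12.8% in ccr4a ccr4b and 21.1% in WT, and at 0.564% in the quadruple mutant and 14.5% in ddm1 rdr2. In runs 4 and 6 CHH in the quadruple mutant was thus under 1%, while ccr4a ccr4b kept more than 12%.

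Run 7, chr3:17530501-17531000, was the best covered, with 5283 to 8585 CHH calls per library. Its CHH level was 13.5% (12.7% to 14.4%) in ccr4a ccr4b and 25% (24.1% to 25.9%) in WT, and 6.25% (5.63% to 6.93%) in the quadruple mutant and 26.9% (25.8% to 28.0%) in ddm1 rdr2. CG was 67.1% in ccr4a ccr4b and 81.3% in WT, and 2.86% in the quadruple mutant and 19.6% in ddm1 rdr2. The CG intervals of each pair were apart. Those of CHH were apart too, but the bins of the run were chosen on CHH, so this is no support.

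Run 8, chr5:12088501-12089000, was the longest in satellite DNA, with CHH at 1.21% in ccr4a ccr4b and 13.2% in WT, and at 2.37% in the quadruple mutant and 17.7% in ddm1 rdr2. CG in it was 29.3% (21.0% to 39.3%) in ccr4a ccr4b and 80.6% (74.7% to 85.3%) in WT, and 0.625% in the quadruple mutant and 10.1% in ddm1 rdr2. CHG was 12.2% in ccr4a ccr4b and 40.8% in WT, and 0 of 91 calls in the quadruple mutant, which allows up to 3.30%, and 18.9% in ddm1 rdr2. Of the 3 runs of 3 bins in other windows of the span, chr5:13227601-13227900 had CHH at 0.872% in ccr4a ccr4b and 17.6% in WT, and at 10.03% in the quadruple mutant and 26.1% in ddm1 rdr2. The only run of 3 on chromosome 4, chr4:6991401-6991800, had 6.02% in ccr4a ccr4b and 22.1% in WT, and 2.78% in the quadruple mutant and 14.6% in ddm1 rdr2.

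**Figure D4:**
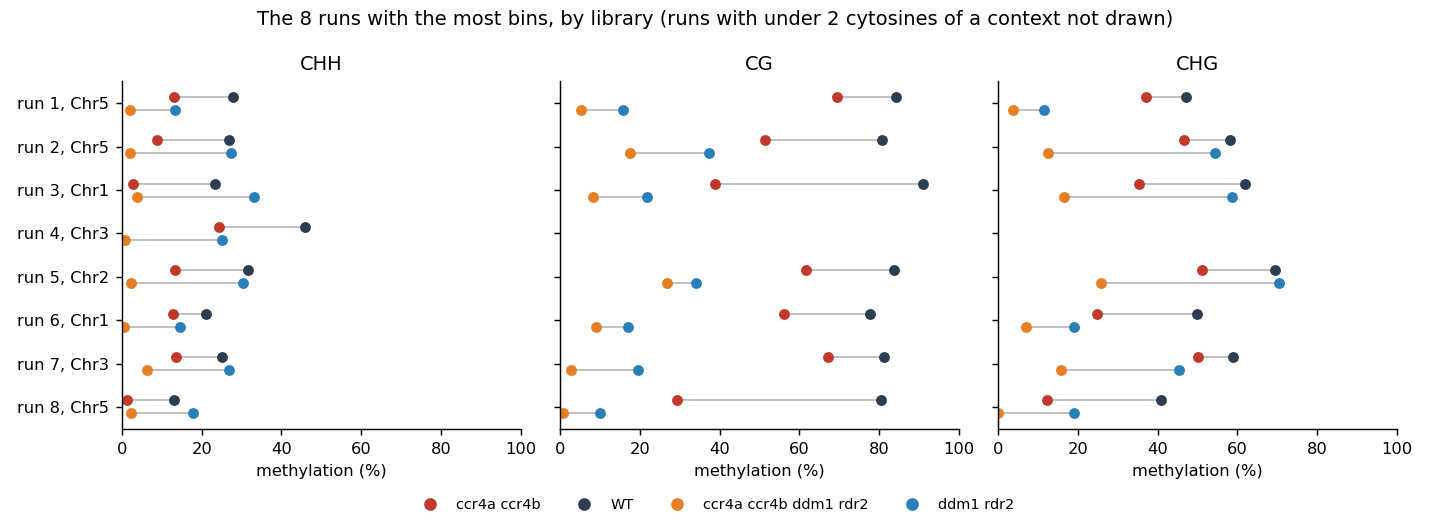
Pooled CHH, CG and CHG methylation (%) of the 8 runs with the most bins, with ccr4a ccr4b joined to WT and the quadruple mutant joined to ddm1 rdr2 by a line in each row. Every drawn pair has the library with ccr4a ccr4b to the left. Run 4 is not drawn for CG and CHG, where it has under 2 cytosines.

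On a wider scale the bins lay in 1007 windows of 10 kb, and 48 windows held 5 or more of them, 33 in pericentromeres and 5 in each other class. The window with the most, chr3:15830001-15840000, named after its values were seen, had 15 of 99 readable bins and 78 candidate bins. Its pooled CHH level was 14.4% in ccr4a ccr4b and 18.0% in WT, and 6.03% in the quadruple mutant and 14.4% in ddm1 rdr2. In this window CG was at 79.1% in ccr4a ccr4b and 81.9% in WT, and CHG at 44.5% in ccr4a ccr4b and 45.2% in WT. In the other pair CG was at 13.8% in the quadruple mutant and 19.96% in ddm1 rdr2, and CHG at 11.4% in the quadruple mutant and 23.2% in ddm1 rdr2.

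In the median bin most single cytosines were lower in each comparison taken alone, but fewer were lower in both. The bins held 25295 readable CHH cytosines, 12905 on the + strand and 12390 on the − strand. In the median bin 66.7% of them were lower in ccr4a ccr4b than in WT, 65.4% lower in the quadruple mutant than in ddm1 rdr2, and 47.6% lower in both, against 53.8%, 53.3% and 30.8% in candidate bins. A methylated call was seen at 24.9% of the cytosines in ccr4a ccr4b and at 73.3% in WT, and at 37.6% in the quadruple mutant and 71.1% in ddm1 rdr2. Candidate bins had 44.1% in ccr4a ccr4b and 75.4% in WT, and 56.9% in the quadruple mutant and 71.4% in ddm1 rdr2. Such shares also rise with depth, and the lowered bins had a median of 7.11 calls per cytosine in ccr4a ccr4b and 12.4 in WT. Of the 593 bins with at least 2 readable CHH cytosines on each strand, 433 (73.0%) were lower on both strands in both comparisons, against 33.3% of 10316 candidate bins. These shares come from the calls that chose the bins.

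By trinucleotide, CHH cytosines in the bins were most often CAA, at 19.4% of cytosines, against 18.0% in candidate bins and 16.1% in all readable bins. CTA made up 11.5%, against 10.2% and 7.77%. CTC made up 9.66%, against 10.4% and 12.6%, and CAC 7.41%, against 7.82% and 9.26%, so the candidate bins lay between in all 4. CAA and CTA had the highest methylation in every library. CAA was at 22.3% in ccr4a ccr4b and 47.1% in WT, and at 14.1% in the quadruple mutant and 37.8% in ddm1 rdr2. CTA was at 21.7% in ccr4a ccr4b and 46.3% in WT, and 14.0% in the quadruple mutant and 37.8% in ddm1 rdr2. CAA and CTA are the sites at which CMT2 is known to act preferentially. CCT had the lowest levels, at 6.88% in ccr4a ccr4b and 10.8% in WT, and at 1.53% in the quadruple mutant and 8.02% in ddm1 rdr2.

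All 9 trinucleotides were lower in both comparisons, but the share of methylation that was kept differed in opposite ways. In ccr4a ccr4b the 3 trinucleotides that start with CC kept the most of the WT level, 62.5% for CCA, 63.1% for CCC and 63.8% for CCT, against 44.1% to 52.5% for the other 6. In the quadruple mutant these 3 kept 24.8%, 20.4% and 19% of the ddm1 rdr2 level, against 37.3% for CAA and 37.0% for CTA. CCC and CCT kept the least, but CCA did not stand apart. CAC kept 23.7%, and CTT, CAT and CTC kept 25.6%, 26.2% and 27.2%. In ccr4a ccr4b, candidate bins kept 80.1%, 84.8% and 84.5% at these 3, against 77.5% to 84.4% at the other 6. In the quadruple mutant candidate bins kept 54.0%, 43.5% and 45.4% at the same 3, against 68.5% for CAA and 67.7% for CTA. CAT and CAC kept 50.4% and 53.9% there. The low shares of CCC and CCT in the quadruple mutant were thus not particular to the lowered bins. Since calls are pooled, well covered bins weigh most in these shares. The shares of the lowered bins come from the calls that chose them, and no test was made of them.

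**Figure D5:**
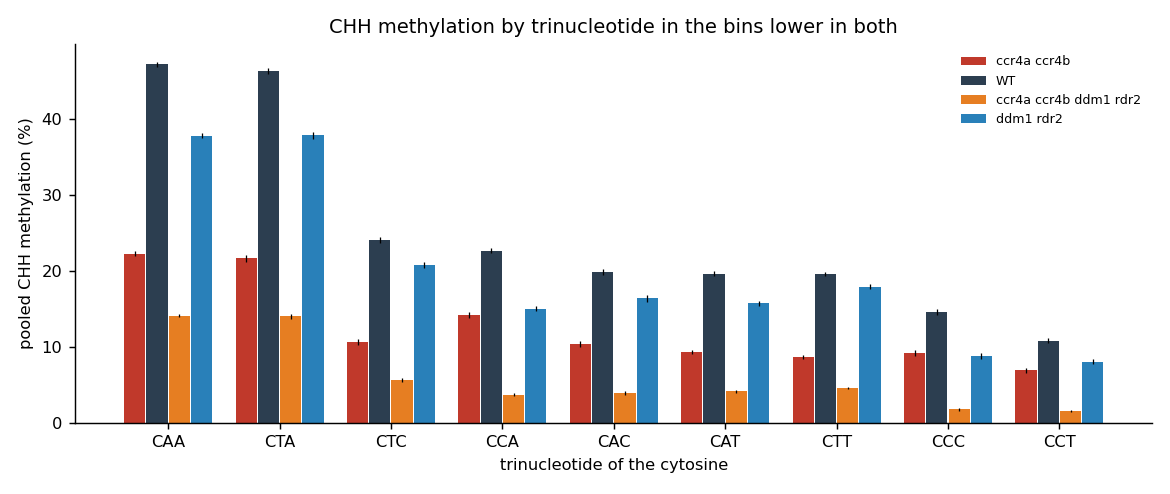
Pooled CHH methylation (%) of the lowered bins by trinucleotide of the cytosine in the 4 libraries, with Wilson 95% intervals. CAA and CTA stand highest in every library, at 47.1% and 46.3% in WT, and each trinucleotide is lower in ccr4a ccr4b than in WT and in the quadruple mutant than in ddm1 rdr2.

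CG methylation, which the choice of bins did not use, was high in WT and moderately lower in ccr4a ccr4b. Over the 882 bins with at least 2 readable CG cytosines its median was 74.4% in ccr4a ccr4b and 84.0% in WT, and 9.80% in the quadruple mutant and 20.4% in ddm1 rdr2. In WT 868 of the 882 (98.4%) had at least 50% CG methylation, close to the 98.8% of candidate bins. The median difference was -7.61 points in ccr4a ccr4b minus WT, with 560 bins lower and 302 higher, and -7.07 points in the quadruple mutant minus ddm1 rdr2, with 605 lower and 199 higher. Candidate bins had median differences of -0.961 and -2.77 points. CG was lower in both comparisons in 387 of the 882 bins (43.9%), against 32.1% of candidate bins. CG and CHG calls come in part from the reads that gave the CHH calls, and the part of shared reads was not tested.

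Few bins lost most of their CG methylation. A bin was called where a 2-sided Fisher's exact test on its calls, with Benjamini-Hochberg adjustment over all 301665 bins with at least 4 readable CG cytosines, gave an adjusted p under 0.01 and the levels differed by at least 40 points. Of 422 lowered bins that could be tested, 37 (8.77%) were called lower in ccr4a ccr4b than in WT, against 1.35% of all bins tested and 1.68% of candidate bins. None was called higher, where 0.721% of all bins and 0.0629% of candidate bins were. With a lower quartile of 76.6% CG in WT, most of the lowered bins had no room for a rise of 40 points. The adjusted p was reached by 123 of the 422 in either direction without regard to size. With at least 10 calls per cytosine only 3 of 155 were called lower, against 0.707% of all bins. In the quadruple mutant minus ddm1 rdr2, 6 (1.42%) were called lower and 2 (0.474%) higher, against 0.445% and 0.428% of all bins tested and 0.582% and 0.189% of candidate bins, so the share called higher was near the background.

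The 3 largest CG losses in ccr4a ccr4b were complete in the calls at hand. At chr1:6713801-6713900, in an arm, CG was 0 of 35 calls in ccr4a ccr4b, which allows up to 8.57%, and 96.1% of 102 in WT, and it was 0 of 57 in the quadruple mutant, which allows up to 5.26%, and 74.0% of 50 in ddm1 rdr2. Fisher's exact test gave adjusted p = 3.02e-26 in the first pair and 2.88e-16 in the second. CHG in this bin was 0% in ccr4a ccr4b and 64.4% in WT, and 0% in the quadruple mutant and 43.9% in ddm1 rdr2, and CHH was 0% in ccr4a ccr4b and 19.4% in WT, and 0% in the quadruple mutant and 10.9% in ddm1 rdr2. So neither library with ccr4a ccr4b had a methylated call there in any context. The other 2 were chr5:14141201-14141300, with CG at 0 of 16 calls in ccr4a ccr4b and 100% of 27 in WT, and chr3:14925201-14925300, with 0 of 28 in ccr4a ccr4b and 92.5% of 53 in WT. In both of these CG was low in ddm1 rdr2 as well, at 12% and 3.12%.

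In 2 further bins CG was called lower in the quadruple mutant than in ddm1 rdr2, while the levels in ccr4a ccr4b and WT lay closer together. At chr5:7788601-7788700 CG was 82.2% in ccr4a ccr4b and 82.1% in WT, but 0 of 200 calls in the quadruple mutant, which allows up to 1.5%, and 61.0% of 372 in ddm1 rdr2 (Fisher's exact test, adjusted p = 2.05e-56). CHG there was 40.9% in ccr4a ccr4b and 48.2% in WT, and 0 of 489 calls in the quadruple mutant and 33.8% in ddm1 rdr2. At chr2:20622401-20622500 CG was 76.2% in ccr4a ccr4b and 87.0% in WT, and 17.6% in the quadruple mutant and 86.8% in ddm1 rdr2 (adjusted p = 6.81e-32 in Fisher's exact test for the second pair). CHH there was high, at 54.7% in ccr4a ccr4b and 75.9% in WT, and at 3.39% in the quadruple mutant and 23.5% in ddm1 rdr2. The 2 bins called higher in CG in the quadruple mutant were chr3:17909901-17910000, at 71.1% of 38 calls in the quadruple mutant and 22.6% of 31 in ddm1 rdr2, and chr3:18147601-18147700, at 68.2% of 22 in the quadruple mutant and 25.5% of 55 in ddm1 rdr2.

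In most of the bins CG methylation was lost in ddm1 rdr2, a comparison that shares its WT library with that of ccr4a ccr4b. The median difference of ddm1 rdr2 minus WT was -60.6 points in the lowered bins and -60.8 points in candidate bins. Of the 422 bins tested, 331 (78.4%) were called lower in ddm1 rdr2 than in WT, against 28.2% of all bins tested and 77.1% of candidate bins, so their share was near that of the candidate bins. None was called higher, where 0.575% of all bins and 0.0157% of candidate bins were, and CG already high in WT left most of these bins no room for it. By region, CG in 129 satellite bins had medians of 61.3% in ccr4a ccr4b and 80.3% in WT, and 0% in the quadruple mutant and 4.44% in ddm1 rdr2. Satellite candidate bins had 73.7% in ccr4a ccr4b and 80.5% in WT, and 0% in the quadruple mutant and 3.08% in ddm1 rdr2. In arm bins CG was higher in ddm1 rdr2, with 78.0% in ccr4a ccr4b and 86.0% in WT, and 34.4% in the quadruple mutant and 45.2% in ddm1 rdr2.

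CHG methylation was lower in the bins in both comparisons. Over the 837 bins with at least 2 readable CHG cytosines its median was 42.6% in ccr4a ccr4b and 53.5% in WT, and 11% in the quadruple mutant and 30.4% in ddm1 rdr2. The median difference was -11.2 points in ccr4a ccr4b minus WT, with 599 bins lower and 229 higher, and -14.4 points in the quadruple mutant minus ddm1 rdr2, with 706 lower and 99 higher. Candidate bins had -0.791 and -5.97 points. CHG was lower in both comparisons in 505 bins (60.3%), against 36.7% of candidate bins. Satellite bins had medians of 16.7% in ccr4a ccr4b and 42.9% in WT, and 0% in the quadruple mutant and 6.25% in ddm1 rdr2.

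By the same Fisher's exact test, with a difference of at least 20 points over 334928 bins tested, 57 of 381 bins (15%) were called lower in CHG in ccr4a ccr4b than in WT, against 0.701% of all bins and 4.91% of candidate bins, and 6 (1.57%) were called higher, against 0.858% of all bins and 3.37% of candidate bins. In the quadruple mutant minus ddm1 rdr2, 124 (32.5%) were called lower, against 0.500% of all bins and 12% of candidate bins, and 1 (0.262%) was called higher, against 0.338% of all bins and 0.833% of candidate bins. With at least 10 calls per cytosine the counts called lower were 25 of 156 and 68 of 156, against 0.589% and 0.525% of all bins. Of the same 381 bins, 169 (44.4%) were called lower in ddm1 rdr2 than in WT, against 20.9% of all bins and 49.9% of candidate bins, and 9 (2.36%) were called higher, against 0.160% of all bins and 1.28% of candidate bins.

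The largest CHG losses in ccr4a ccr4b included chr1:10385401-10385500, with 0 of 51 calls in ccr4a ccr4b, which allows up to 5.88%, and 72.0% of 207 in WT (Fisher's exact test, adjusted p = 3.85e-20). Its CHH level was 1.01% of 397 calls in ccr4a ccr4b and 38.0% of 1516 in WT, and 2.77% of 469 in the quadruple mutant and 13.6% of 786 in ddm1 rdr2, and CG was 7.02% in ccr4a ccr4b and 82.5% in WT. This bin was thus low in every context in ccr4a ccr4b. At chr5:14470901-14471000 CHG was 0 of 30 calls in ccr4a ccr4b and 96.8% of 31 in WT. The opposite was seen at chr3:16282201-16282300, where CHG was 74.2% of 31 calls in ccr4a ccr4b and 34.3% of 166 in WT (adjusted p = 1.79e-03 in Fisher's exact test), while CHH was 4.07% in ccr4a ccr4b and 28.0% in WT.

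The 3 largest CHG losses in the quadruple mutant lay within 2 kb of each other on chromosome 5. CHG at chr5:16617401-16617500 was 0 of 62 calls in the quadruple mutant, which allows up to 4.84%, and 94.6% of 111 in ddm1 rdr2 (Fisher's exact test, adjusted p = 3.36e-37). At chr5:16616901-16617000 it was 4.35% of 138 calls in the quadruple mutant and 78.7% of 385 in ddm1 rdr2, and at chr5:16618801-16618900 14.0% of 57 in the quadruple mutant and 84.5% of 206 in ddm1 rdr2. In ccr4a ccr4b and WT these 3 bins differed among themselves. CHG at the first was 88.6% in ccr4a ccr4b and 72.1% in WT, at the second 55.9% in ccr4a ccr4b and 44.3% in WT, and at the third 4.44% in ccr4a ccr4b and 43.9% in WT. The 1 bin called higher in CHG in the quadruple mutant, chr5:11509901-11510000, had 56.8% there and 13.7% in ddm1 rdr2.

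Within CHG, CCG had lower levels than the other trinucleotides in all 4 libraries, at 34.4% in ccr4a ccr4b and 45.3% in WT, and at 9.70% in the quadruple mutant and 22.1% in ddm1 rdr2. CAG was at 53.9% in ccr4a ccr4b and 61.2% in WT, and at 20.4% in the quadruple mutant and 44.8% in ddm1 rdr2.

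Most of the bins were methylated in all contexts in WT. Of the 567 bins readable in all 3 contexts, 403 (71.1%) had at least 50% CG and at least 40% CHG methylation in WT, against 72.6% of candidate bins, and none had both under 10%. A bin with no methylated call in any context was rare, with 15 of the 567 in ccr4a ccr4b, 20 in the quadruple mutant and 3 in both.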

How the data were processed

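The values are methylated and unmethylated read counts per cytosine in each of 4 libraries, deposited by the authors as cytosine reports with context and trinucleotide. The submitters' processing notes name Bismark 0.22.3; the other steps are not given in the sources used here. Per the labels' protocols, 100 ng of DNA was converted enzymatically and amplified over 13 PCR cycles. The reads carry no molecular identifiers as far as the sources say, so calls need not be independent molecules. No cytosine has 1 or 2 calls in the files, and those with fewer than 4 calls in any library were left out.

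Calls were summed over the cytosines of a context in 100 bp bins (Python 3.11.15, numpy 2.4.6, pandas 2.3.3, scipy 1.17.1). CG and CHG were tested bin by bin with Fisher's exact test (2-sided, numba 0.67.0, tested on simulated data), adjusted over all bins of a context and comparison. Intervals are Wilson 95% intervals, and a count of 0 allows 3 calls. CHH chose the bins, so its main values were not tested. Fisher's exact test on CHH calls was run only as a stricter setting of the closing section, on the values that chose the bins. The bins, comparisons and the rule for named bins (the longest runs, the largest drops, those nearest the threshold and the largest called CG and CHG changes) were chosen with earlier results of these data known. No genome or annotation of the build was used, so no gene is named, and the distance to transcription starts was not analysed here.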

Additional observations from a re-analysis of the deposited data

How the results depend on the processing

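No paired analysis was possible because each genotype has 1 library and the labels give no replicate numbers. Without replicates, the spread between plants is unknown, and thin coverage limits the satellite values most. The count of 1701 bins was 579 with at least 10 calls per cytosine and 441 with 15 points. It was 733 with an adjusted p under 0.01 in Fisher's exact test on CHH calls required in both comparisons. That test used the calls that chose the bins and is no support for them. The remaining bins did not reach this adjusted p in at least 1 comparison. With at least 100 CHH calls in each library, a setting chosen after seeing the data, the count was 685. The 1484 runs became 520, 410, 649 and 603 under these 4 settings. The satellite share of 18.6% became 2.07%, 15.4%, 11.1% and 9.20% under the same settings, and 16.7% with at least 8 CHH cytosines. With at least 10 calls, the share in other windows of the span was 4.32%, in pericentromeres 64.2% and in arms 29.4%, and 99.7% of bins had at least 50% CG in WT. The pericentromere share was 53.8% with 8 cytosines, 58.4% with Fisher's exact test and 59.7% with 100 calls, and the arm share 21.9% with the grid shifted by 50 bp and 29.0% with 15 points.

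The median CG difference was -11.2 points in ccr4a ccr4b minus WT with 15 points, and in the quadruple mutant minus ddm1 rdr2 -8.97 with 15 points and -7.90 with Fisher's exact test. The median CHG difference in ccr4a ccr4b minus WT was -8.90 with 10 calls and -16.9 with 15 points. In the quadruple mutant minus ddm1 rdr2 it was -16.9 with 10 calls, -16.2 with the shifted grid, -21.2 with 15 points and -16.1 with Fisher's exact test. No median changed sign.

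In ccr4a ccr4b minus WT, the bins called lower in CG numbered 105 of 882 with at least 2 cytosines of the context, against 2.05% of all bins tested, 3 of 155 with 10 calls, against 0.707%, and 76 of 422 with 20 points, against 4.54%. With 20 points 9 of 422 were called higher, against 2.79%. In CHG, 86 of 837 were called lower with 2 cytosines, against 0.680%, and 10 higher, against 0.814%. With 10 calls, 25 of 156 were called lower, against 0.589%, and 1 higher, against 0.829%. In the quadruple mutant minus ddm1 rdr2, CG was called lower in 15 of 882 with 2 cytosines, against 0.666%, and in 42 of 422 with 20 points, against 2.17%, and higher in 0 of 155 with 10 calls, against 0.320%. CHG there was called lower in 68 of 156 with 10 calls, against 0.525%, and higher in 0, against 0.394%. These settings test fewer or more bins by construction, or change the size required. Counts were judged as raw numbers, whatever the number tested, and other values by the 95% interval of the main value. Of the alternative values, 70 moved little by this rule and 44, given above, moved more. Among the 70 were the 1275 bins found with at least 8 CHH cytosines. Another was CG called lower in the quadruple mutant in 5 of 155 with 10 calls, against 0.348% of all bins and 6 of 422 in the main setting. The cause was not tested further.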
